A study of Mus musculus with 6 samples.

Results

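The genes described here bind actin monomers or cut actin filaments. They are the thymosins Tmsb4x and Tmsb10, the profilins Pfn1 and Pfn2, the cofilins Cfl1 and Cfl2, destrin (Dstn, also called ADF) and the cyclase-associated proteins Cap1 and Cap2, which makes 9 of the 31053 genes counted. Tmsb4x was chosen by its measured fall in cD2KO cells, so its values are given as a description without a test, and the other 8 were taken as members of the same families. All 9 passed the minimum on expression, as did 11633 genes in all.

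Actin exists as single molecules and as filaments, and a cell keeps a large reserve of monomers beside its filaments. Thymosins hold monomers in that reserve, and profilins hand them to the growing ends of filaments. Cofilins and destrin bind aged filaments, cut them and speed the release of monomers, and the cyclase-associated proteins help cofilin to take filaments apart and recharge the monomers with ATP. Cfl1 and Dstn are found in most tissues and Cfl2 is the cofilin of skeletal muscle. Pfn1 is found in most tissues and Pfn2 is best known from the brain, while Cap1 is widespread and Cap2 is enriched in striated muscle. Muscle stem cells leave quiescence with a change of shape and begin to move, both of which depend on actin turnover.

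RNA of quiescent muscle stem cells (qMuSCs), sorted from resting hindlimb muscle by the GFP that the Pax7 promoter drives, was sequenced with 1 library per mouse. The WT group held the 3 mice c124, c129 and c130, and the cD2KO group the 3 mice fl125, fl126 and fl128. The WT mice were Pax7nGFP/+;Pax7+/+;Dio2Fl/Fl and the cD2KO mice Pax7nGFP/+;Pax7-CreERT2/+;Dio2Fl/Fl, all were given tamoxifen and all were 3 to 4 months old. Both groups thus carried floxed alleles of Dio2, the gene of the type 2 deiodinase that makes active thyroid hormone. The Cre recombinase, which acts in cells that use the Pax7 promoter, was present in cD2KO mice only, so the allele and the loss of Dio2 cannot be told apart. The comparison asks how the RNA of resting stem cells differs once Dio2 is deleted in them.

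Total counts were between 2184073 and 3897787 per mouse, at which 3 counts equal 0.773 to 1.37 CPM (counts scaled to a library of 1e+06 with TMM factors), counting error alone being considered. Dio2 was at 5.41, 1.86 and 3.48 CPM in WT c124, c129 and c130 and at 6.83, 1.72 and 0.316 CPM in cD2KO fl125, fl126 and fl128, below the minimum on expression. The library labelled fl125 thus had the highest Dio2 level of the 6, at 15 counts against 21 in c124, and counts over the whole gene do not separate the floxed part. It also stood apart in its immune markers, whose 24 genes summed to 334 CPM in fl125, to 3693 and 4284 CPM in fl126 and fl128 and to 5757, 11097 and 6883 CPM in WT. Values without this mouse are given where a result rests on it. Pax7 itself was present in all mice, at 213 to 434 CPM in WT and at 316 to 691 CPM in cD2KO qMuSCs. The 12 markers of muscle stem cells summed to 1732 to 2278 CPM in WT and to 2038 to 3282 CPM in cD2KO mice. Of these markers, 3 were called higher and 0 lower in cD2KO, by the threshold given below. Over all genes tested the shares called were 5.34% higher and 6.62% lower. Markers of other cells were present too, among them Myh11 of smooth muscle at 2000 CPM or more in every mouse. In such bulk samples fewer cells of a type and less RNA per cell cannot be told apart.

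Tmsb4x (ENSMUSG00000049775), which encodes thymosin β4, the main monomer reserve protein of most cells, lies on the minus strand of chromosome X at chrX:167207093-167209315 in mm10. Its level was 996, 1675 and 1059 CPM in WT c124, c129 and c130 and 550, 475 and 463 CPM in cD2KO fl125, fl126 and fl128. The cD2KO mice lay close together and all below the lowest WT mouse, while c129 stood above the other WT mice. The mean ± SD of 3 mice was 1243 ± 375 CPM in WT qMuSCs and 496 ± 47.1 CPM in those of cD2KO mice, which is -1.33 on the log2 scale. Without c129 the log2 fold change was -1.03, and over the other mice left out in turn it reached -1.46. All 6 mice expressed the Y-linked gene Ddx3y, at 94.5 CPM or more, and held at most 1 count of Xist. Of the other Y-linked genes looked at, Kdm5d and Uty overlapped between the groups, while Eif2s3y was at 24.7, 33.8 and 27.5 CPM in WT and at 9.11, 7.91 and 12 CPM in cD2KO (log2 fold change -1.56, adjusted p = 0.0885 in edgeR's test).

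Tmsb10 (ENSMUSG00000079523), the close relative with the same role, lies at chr6:72957347-72958748 on the minus strand. The coding sequences of both thymosins are shown because they tell how well short reads separate them. They come from the transcripts of GENCODE M21 on mm10 without the stop codon, 5′ to 3′, and capitals mark the bases that differ between the genes.
Tmsb4x: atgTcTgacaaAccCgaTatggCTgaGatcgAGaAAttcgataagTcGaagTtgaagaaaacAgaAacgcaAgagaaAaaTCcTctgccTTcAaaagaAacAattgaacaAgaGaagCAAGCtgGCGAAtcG
Tmsb10: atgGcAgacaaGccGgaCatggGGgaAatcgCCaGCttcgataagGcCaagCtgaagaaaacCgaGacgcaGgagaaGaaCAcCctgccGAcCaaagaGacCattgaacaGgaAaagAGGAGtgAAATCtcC
The sequences have 132 bases each and share 92 of them, or 69.7%, and their longest identical run has 10 bases. No stretch of 50 bases of Tmsb4x was found in another annotated gene, whereas 27% of those of Tmsb10 were also found in 5 other genes. Of these only Gm9844 is in the count table, with 2 counts over all mice, and the other 4 were not counted.

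Tmsb10 was at 91.9, 101 and 79.4 CPM in WT c124, c129 and c130 and at 68.8, 77.4 and 65.7 CPM in cD2KO fl125, fl126 and fl128. All cD2KO mice lay below all WT mice, but by a narrow margin. The log2 fold change was -0.36 (standard error 0.20, unadjusted p = 0.0895, adjusted p = 0.508 in edgeR's quasi-likelihood test), with a 95% interval from -0.79 to 0.06, and did not pass the threshold. Within each mouse there were 10.8, 16.6 and 13.3 counts of Tmsb4x for every count of Tmsb10 in WT c124, c129 and c130 and 7.99, 6.14 and 7.04 in cD2KO fl125, fl126 and fl128. The ratio was thus lower in every cD2KO mouse, with a difference of -0.93 on the log2 scale, which is a description since Tmsb4x was chosen for its fall.

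**Figure D1:**
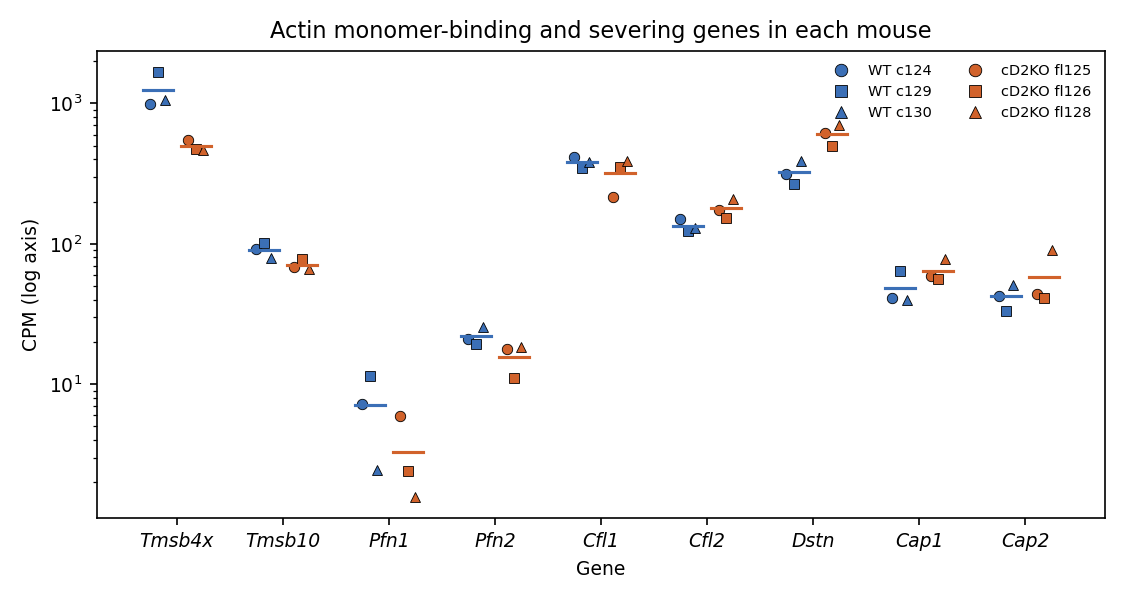
Level of the 9 genes in each mouse, in CPM on a log axis. Each point is 1 mouse and each bar the mean of 3 mice; WT is blue and cD2KO orange, and the groups do not overlap in Tmsb4x, Tmsb10, Pfn2, Cfl2 and Dstn.

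Over the 11633 genes tested, 12% passed the threshold of an unadjusted p under 0.05 (edgeR's quasi-likelihood test), 5.34% with a higher and 6.62% with a lower level in cD2KO qMuSCs, and 0.774% had an adjusted p under 0.1. In 18.1% of all genes the mice of both groups did not overlap. Of the 8 genes not chosen for their change, 2 were called higher (Dstn and Cfl2), 0 were called lower and 0 had an adjusted p under 0.1. The groups did not overlap in 4 of the 8, which were Dstn and Cfl2 on the higher and Tmsb10 and Pfn2 on the lower side. The median log2 fold change of the 8 was 0.09, against -0.02 over all genes tested. Without fl125 there were 4 calls, with Cap2 added to the higher and Pfn1 to the lower side, while the calls over all genes went from 621 to 933 higher and from 770 to 874 lower ones of 11769 tested.

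Destrin rose. Dstn (ENSMUSG00000015932), at chr2:143915320-143943324 on the plus strand, was at 316, 268 and 386 CPM in WT c124, c129 and c130 and at 617, 494 and 704 CPM in cD2KO fl125, fl126 and fl128. Every cD2KO mouse lay above every WT mouse, and the means of 3 mice were 323 ± 59.2 and 605 ± 106 CPM (± SD). The log2 fold change was 0.90 (standard error 0.22, 95% interval from 0.44 to 1.37, unadjusted p = 0.00093, adjusted p = 0.102 in edgeR's quasi-likelihood test), a rise of 1.87-fold. It had an unadjusted p under 0.05 under all 9 alternatives and with each of the 6 mice left out, and the log2 fold change stayed between 0.78 and 1.05. Without fl125 it was 0.93.

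Cfl1 (ENSMUSG00000056201), the non-muscle cofilin, lies at chr19:5490455-5495201 on the plus strand. It was at 416, 345 and 380 CPM in WT c124, c129 and c130 and at 215, 353 and 392 CPM in cD2KO fl125, fl126 and fl128. The lowest value was that of fl125, and the other cD2KO mice lay within the WT range. The log2 fold change was -0.25 (standard error 0.23, unadjusted p = 0.303, adjusted p = 0.74 in edgeR's test), and without fl125 it was 0.01. The counts of Cfl1 are uncertain in part, since 18.3% of its stretches of 50 bases were also found in 5 other genes. One of these is Snx32, which overlaps 468 exon bases of Cfl1 on the opposite strand. It held 373 of the 530 shared stretches. Over all mice Snx32 had 193 counts and Cfl1 6375.

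Cfl2 (ENSMUSG00000062929), the muscle cofilin, lies at chr12:54858809-54862877 on the minus strand. Its level was 148.8, 123.3 and 128.8 CPM in WT c124, c129 and c130 and 174.9, 153.1 and 209.7 CPM in cD2KO fl125, fl126 and fl128. The groups did not overlap, though fl126 and c124 were near each other. The means of 3 mice were 134 ± 13.5 and 179 ± 28.6 CPM (± SD), and the log2 fold change of 0.42 (standard error 0.20) was just past the threshold, with an unadjusted p of 0.04998 and an adjusted p of 0.418 in edgeR's quasi-likelihood test. The call was lost under 6 of 9 alternatives and without c129, c130 or fl128, where the log2 fold change was 0.39, 0.40 and 0.29.

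The first 60 coding bases of the 3 genes are shown because they hold the serine that LIM kinases phosphorylate to switch these proteins off. Capitals mark codon 3, counted from the start codon, and the sequences come from GENCODE M21 on mm10, 5′ to 3′.
Cfl1: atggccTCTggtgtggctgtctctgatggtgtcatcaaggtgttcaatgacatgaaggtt
Cfl2: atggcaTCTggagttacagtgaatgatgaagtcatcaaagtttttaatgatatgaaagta
Dstn: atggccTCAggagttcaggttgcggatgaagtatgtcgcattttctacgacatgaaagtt
A codon for serine stands there in each. Over the whole coding sequence Cfl1 shares 71.5% of its bases with Cfl2 and 69.8% with Dstn, and Cfl2 shares 67.7% with Dstn. The longest identical runs of these pairs have 11, 20 and 13 bases.

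Within the family, the shares of Dstn and Cfl1 did not overlap between the groups, which is a description without a test. Of the counts of Cfl1, Cfl2 and Dstn together, Dstn made up 35.8%, 36.5% and 43.2% in WT c124, c129 and c130 and 61.3%, 49.4% and 53.9% in cD2KO fl125, fl126 and fl128. Cfl1 made up 47.3%, 46.8% and 42.5% in WT and 21.3%, 35.3% and 30% in cD2KO. Cfl2 held between 14.4% and 17.4% in every mouse, with the groups overlapping. Destrin was thus the most counted of the 3 genes in every cD2KO mouse, and Cfl1 in WT mice c124 and c129. The sum of the 3 genes was 881, 736 and 895 CPM in WT and 1007, 1000 and 1306 CPM in cD2KO qMuSCs.

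Ratios within a mouse need no library size. There were 0.759, 0.779 and 1.02 counts of Dstn for every count of Cfl1 in WT c124, c129 and c130 and 2.87, 1.4 and 1.79 in cD2KO fl125, fl126 and fl128. The groups did not overlap, and the mean log2 ratio was higher by 1.195 (2.29-fold) in cD2KO (two-sided exact permutation test over mice, p = 0.1, adjusted p = 0.2 over the 4 ratios tested). A design with 3 mice on each side cannot give a p below 0.1. The muscle to non-muscle ratio of Cfl2 to Cfl1 was 0.358, 0.358 and 0.339 in WT and 0.814, 0.434 and 0.535 in cD2KO, a difference of 0.71 on the log2 scale (exact permutation test, p = 0.1, adjusted p = 0.2). It was nearly the same in all WT mice and spread over a wider range in cD2KO mice, with fl125 highest. Without fl125 the difference was 0.45 for Cfl2 to Cfl1 and 0.91 for Dstn to Cfl1 on the log2 scale.

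**Figure D2:**
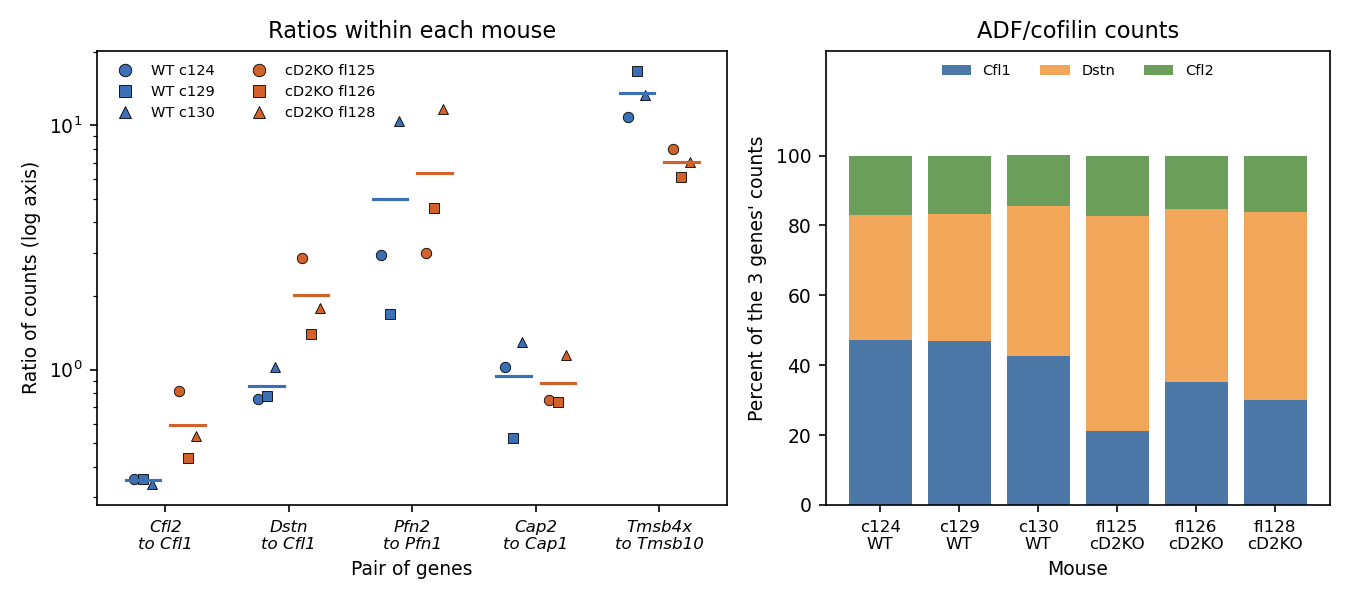
Left, count of the first gene divided by that of the second in each mouse, on a log axis, with 1 point per mouse and a bar at the mean of 3 mice. Right, percent of the summed counts of Cfl1, Dstn and Cfl2 that each gene took in each mouse; Dstn takes 49.4% or more in cD2KO and 43.2% or less in WT.

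Few reads were counted on the profilins, and a low level of their RNA cannot be told apart from reads that the counting did not assign, since its rules are not given in the sources used here. No stretch of 50 bases of either profilin was found in another annotated gene, and neither gene overlaps another. Pfn1 (ENSMUSG00000018293, chr11:70651850-70654644, minus strand) had only 28, 31 and 7 counts in WT c124, c129 and c130 and 13, 7 and 5 in cD2KO fl125, fl126 and fl128, or 7.21, 11.5 and 2.44 CPM and 5.92, 2.41 and 1.58 CPM. The groups overlapped, and the log2 fold change of -1.13 (standard error 0.72, unadjusted p = 0.137, adjusted p = 0.579 in edgeR's test) was not past the threshold. It was -1.77 without fl125, where it passed with an unadjusted p of 0.0402, and -0.59 without c129, with an unadjusted p of 0.477. Pfn2 (ENSMUSG00000027805, chr3:57841895-57848079, minus strand) was at 21.1, 19.3 and 25.4 CPM in WT and at 17.8, 11 and 18.3 CPM in cD2KO. All cD2KO mice lay below all WT mice, and the difference was -0.48 on the log2 scale (standard error 0.32, unadjusted p = 0.158, adjusted p = 0.603 in edgeR's test). The ratio of Pfn2 to Pfn1 was 2.93, 1.68 and 10.4 in WT and 3, 4.57 and 11.6 in cD2KO, and overlapped between the groups (difference 0.54 on the log2 scale, exact permutation test, p = 0.5, adjusted p = 0.667). The ratio rests on 5 to 31 counts of Pfn1 per mouse.

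Cap1 (ENSMUSG00000028656, chr4:122859047-122886056, minus strand) was at 41.2, 63.9 and 39.7 CPM in WT c124, c129 and c130 and at 58.7, 56.1 and 78.3 CPM in cD2KO fl125, fl126 and fl128. The groups overlapped through c129, and the log2 fold change of 0.42 (standard error 0.25, unadjusted p = 0.112, adjusted p = 0.54 in edgeR's test) was 0.69 without that mouse, with an unadjusted p of 0.0181. Cap2 (ENSMUSG00000021373, chr13:46501848-46650281, plus strand), the form enriched in striated muscle, was at 42.2, 33.4 and 51.2 CPM in WT and at 44.2, 41.3 and 89.7 CPM in cD2KO. Its log2 fold change of 0.47 (standard error 0.30, unadjusted p = 0.145, adjusted p = 0.589 in edgeR's test) rested on fl128, the mouse with the most Cap2, and was 0.01 without it. Counts of Cap2 for every count of Cap1 were 1.02, 0.523 and 1.29 in WT and 0.752, 0.736 and 1.15 in cD2KO. This ratio differed by -0.04 on the log2 scale (exact permutation test, p = 1, adjusted p = 1). The ratio of the muscle to the non-muscle cofilin was thus higher in every cD2KO mouse (exact permutation test, adjusted p = 0.2). The ratios of Pfn2 to Pfn1 and of Cap2 to Cap1 overlapped between the groups.

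**Figure D3:**
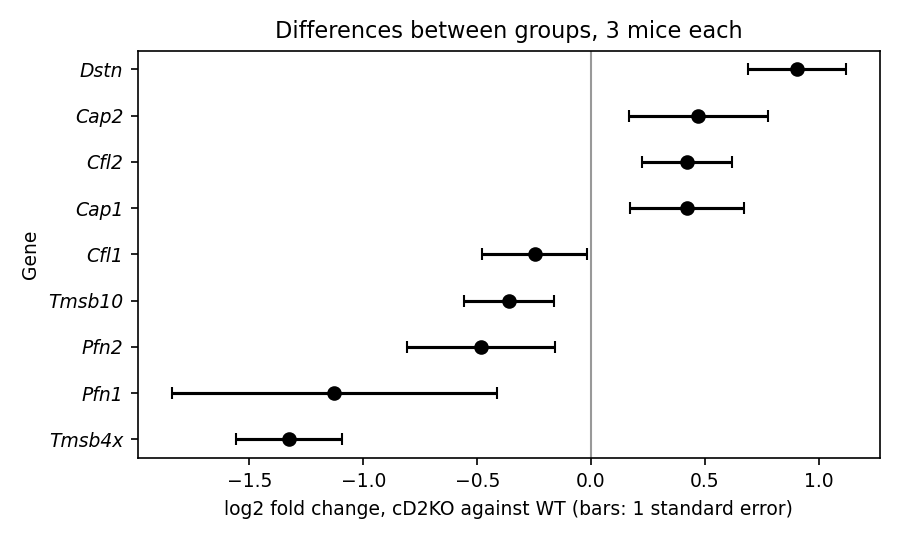
Log2 fold change of each gene in cD2KO against WT qMuSCs, with bars of 1 standard error derived from edgeR's test of 3 mice per group. Dstn at 0.90 and Tmsb4x at -1.33 mark the ends. Tmsb4x was chosen for its fall, so its bar is no test. Bars of Pfn1, with 5 to 31 counts per mouse, are the widest.

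Levels were compared between genes per kb of exon (CPM divided by exon length), since longer transcripts can yield more reads. The sources used here do not state whether reads came from whole transcripts or from their ends. In WT qMuSCs the order of mean levels was Tmsb4x (907 CPM per kb), Dstn (169), Cfl1 (134), Tmsb10 (71.1), Cfl2 (40.9), Cap1 (13.8), Cap2 (10.2), Pfn2 (6.2) and Pfn1 (2.93). Dstn and Cfl1 overlapped between mice, as did Cap1 and Cap2, and the other neighbours in the order did not. In cD2KO qMuSCs the order was the same, at 362 CPM per kb for Tmsb4x, 317 for Dstn, 113 for Cfl1, 55.3 for Tmsb10, 54.9 for Cfl2, 18.4 for Cap1, 14 for Cap2, 4.43 for Pfn2 and 1.37 for Pfn1. There Tmsb4x and Dstn overlapped, Tmsb10 and Cfl2 overlapped, as did Cap1 and Cap2, whereas Dstn and Cfl1 no longer did. On the CPM scale, without length, Dstn came before Tmsb4x in cD2KO, Cfl1 before Dstn in WT, and Cfl2 before Tmsb10 in both groups. The low places of Pfn1 and Pfn2 carry the limit given above for the profilins. Tmsb4x made up 47.9%, 63.4% and 49.2% of the summed CPM of the 9 genes in WT c124, c129 and c130 and 31.4%, 28.6% and 22.9% in cD2KO fl125, fl126 and fl128.

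Genes whose log2 CPM followed Tmsb4x most closely over the 6 mice were Tjp1 (Pearson's r = 0.9991), Maf (0.9925), Sp100 (0.9925), Trim30d (0.9897) and Otulinl (0.9883). Tjp1 encodes a tight junction protein and Maf a transcription factor. These coefficients are descriptions over 6 points that fall in 2 groups and share libraries. All 5 had lower means in cD2KO, with log2 fold changes from -0.61 (Maf) to -2.39 (Trim30d). This direction follows from their choice by likeness to Tmsb4x, which was itself chosen for its fall. Among the 9 genes, the r with Tmsb4x was 0.88 for Tmsb10, -0.842 for Cfl2 and -0.924 for Dstn, and Dstn and Tmsb10 had an r of -0.982.

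Tmsb4x and Dstn were set beside the markers of other cells, whose sums moved with the groups. Immune markers had lower means in cD2KO in 23 of 24 genes, and in 16 of them the groups did not overlap, beside 18.1% of all genes tested. Of the 22 immune markers tested, 4 were called lower and 0 higher. Cd79a of B cells was at 0 in all mice. The defining markers of immune cells were Ptprc at 18.3 to 69.8 CPM in WT and 4.1 to 15.8 in cD2KO, Csf1r at 424 to 466 and 10.5 to 270, and Adgre1 at 57.7 to 125 and 4.55 to 35.7. The immune sum was highest in c129, at 11097 CPM beside 1675 CPM of Tmsb4x, and lowest in fl125, at 334 CPM beside 550 CPM of Tmsb4x. Immune sums in c124 and c130 were 5757 and 6883 CPM beside 996 and 1059 CPM of Tmsb4x. Those in fl126 and fl128 were 3693 and 4284 CPM beside 475 and 463 CPM. Within WT the immune sum and Tmsb4x thus had the same order, and within cD2KO the opposite order. The endothelial markers summed to 550, 724 and 747 CPM in WT and to 460, 392 and 452 CPM in cD2KO. Their means were lower in cD2KO in 15 of 18 genes. The groups did not overlap in 6 on the lower side and in 1 on the higher side. Of the 16 tested, 8 were called lower and 0 higher, beside 6.62% and 5.34% of all genes tested. Pecam1 was at 8.5 to 18.2 CPM in WT and 1.72 to 6.32 in cD2KO, and Kdr at 10.6 to 27.8 and 4.82 to 7.9. Cdh5 overlapped, at 12.9 to 28.2 and 4.1 to 15.5. The part of immune and endothelial RNA in the level of Tmsb4x was not tested.

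Mural markers, those of the smooth muscle cells and pericytes around vessels, summed to 6215, 4613 and 5040 CPM in WT c124, c129 and c130 and to 7476, 7265 and 9437 CPM in cD2KO fl125, fl126 and fl128. Of the 13, 5 lay higher in all cD2KO mice and 0 lay lower in all, beside 18.1% of all genes tested without overlap in either direction. By their means, 4 of the 13 were lower in cD2KO. Myh11 of smooth muscle was at 2000 to 2445 CPM in WT and 3107 to 6127 CPM in cD2KO, whereas Rgs5 and Pdgfrb of pericytes overlapped, at 1075 to 2160 and 112 to 187 CPM in WT and at 844 to 2330 and at most 163 CPM in cD2KO. The mural sums thus separated the groups in the same direction as Dstn, and their part in the rise of Dstn was not tested. Muscle fiber markers summed to 3899, 4985 and 2493 CPM in WT and to 4039, 4779 and 8077 CPM in cD2KO. The highest of these sums was that of fl128, the mouse with the most Cfl2 and Cap2. The next highest was that of c129, the mouse with the least Cfl2 and Cap2, at 123.3 and 33.4 CPM. The part of fiber RNA in those levels was not tested. The sums of fibroadipogenic markers ran from 3852 to 6458 CPM in WT and from 2364 to 5349 CPM in cD2KO and those of red blood cells from 10693 to 16672 and from 3437 to 22422, both with overlap.

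**Figure D4:**
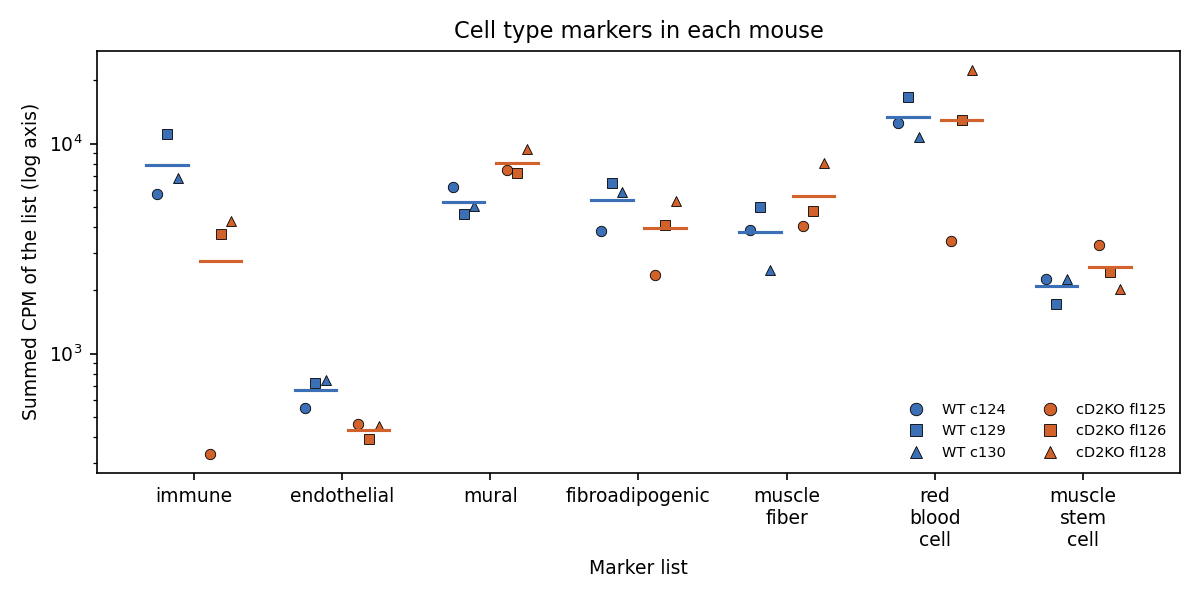
Summed CPM of marker genes by cell type in each mouse, on a log axis, with a bar at the mean of 3 mice. Immune and endothelial sums are lower and mural sums higher in all cD2KO mice, and fl125 has the lowest immune sum, 334 CPM.

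The other genes of actin turnover were read from 7 lists that held 109 genes, of which 94 were tested, 5 were called higher and 18 lower, and 0 had an adjusted p under 0.1. Over all 11633 genes 621 were called higher and 770 lower. Without fl125 the lists had 10 higher and 14 lower calls, beside 933 and 874 over all genes, and without c129 they had 7 and 11, beside 499 and 399. In both cases the higher calls outnumbered the lower ones over all genes but not in the lists. Among the actins 1 of 6 rose. Acta2, the actin of smooth muscle, was at 3983, 1572 and 2464 CPM in WT c124, c129 and c130 and at 4443, 5642 and 7938 CPM in cD2KO fl125, fl126 and fl128, higher by 1.17 on the log2 scale (standard error 0.33, adjusted p = 0.158 in edgeR's test). Actb, the non-muscle actin with the highest level of the 6, was at 8676 ± 1074 and 9757 ± 1070 CPM (mean ± SD of 3 mice), with a log2 fold change of 0.17. The values of Acta1, Actc1 and Actg2 were 0.68, 0.71 and 0.98 and overlapped between the groups. The same holds for Actg1, with few counts, at 4.66 ± 2.54 CPM in WT mice and at 3.37 ± 2.38 CPM in cD2KO mice (mean ± SD of 3 mice).

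Further genes that bind monomers or help to take filaments apart had their median at -0.55 on the log2 scale, and 0 of 13 were called higher and 5 lower. These were Mtss1 (-0.92), Gmfg (-2.51), Twf1 (-0.90), Coro1b (-0.46) and Cotl1 (-1.30). Twf1 encodes twinfilin, a monomer binding protein related to cofilin, and was at 13.4, 22.6 and 26.1 CPM in WT c124, c129 and c130 and at 9.56, 12.4 and 11.1 CPM in cD2KO fl125, fl126 and fl128. Gmfg, which is best known from white blood cells, was at 0 in fl125, 4.13 CPM in fl126 and 2.53 CPM in fl128 and between 11.1 and 17.8 CPM in WT. Of the enzymes that switch cofilins off and on, 1 of 13 was called. Ssh2, a slingshot phosphatase that reactivates cofilin, was at 146.5, 205.3 and 128.8 CPM in WT and at 98.8, 126.9 and 75.8 CPM in cD2KO (log2 fold change -0.67, standard error 0.24, unadjusted p = 0.0141, adjusted p = 0.267 in edgeR's test). The kinases Limk1 and Limk2 had log2 fold changes of 0.34 and -0.25 and overlapped between the groups. The call of Ssh2 was lost without c129 and without fl128.

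In the Arp2/3 complex, which starts branched filaments, and its activators, 1 of 21 genes was called higher and 7 lower, with a median of -0.32. The 5 lower genes with the smallest p were Hcls1 (-1.90), Actr2 (-0.90), Abi1 (-0.85), Arpc5 (-0.68) and Was (-2.53), and the higher one was Arpc5l (0.78), a paralog of Arpc5. Arpc5 was at 101, 94.3 and 117 CPM in WT c124, c129 and c130 and at 62.8, 58.8 and 73 CPM in cD2KO fl125, fl126 and fl128. Arpc5l ran the other way, at 59.5, 62.7 and 59.9 CPM in WT and at 107, 83.6 and 121 CPM in cD2KO. Hcls1 and Was, known from blood cells, were at 2.28 and 0 CPM in fl125, the mouse with the lowest immune sum. The list of the gelsolin family and of proteins that cap filament ends also holds the leiomodins. Of its 17 genes tested 1 was higher, the leiomodin Lmod1 of smooth muscle (0.76), and 4 were lower, namely Eps8 (-0.96), Capg (-0.77), Capza1 (-0.98) and Gsn (-0.61). Formins and elongation factors gave 1 higher gene, Enah (0.69), and 1 lower gene, Fmnl1 (-1.74), of 15. The list of actin monomer sensors holds the cofactors of serum response factor and also the Mical enzymes, which oxidise actin. Of its 9 genes 1 was called higher, Mical2, which is such an enzyme rather than a sensor. Mical2 rose from 84.3 ± 6.12 to 141 ± 15.4 CPM (mean ± SD of 3 mice, log2 fold change 0.75, adjusted p = 0.124 in edgeR's test). The cofactors in the list were not called.

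**Figure D5:**
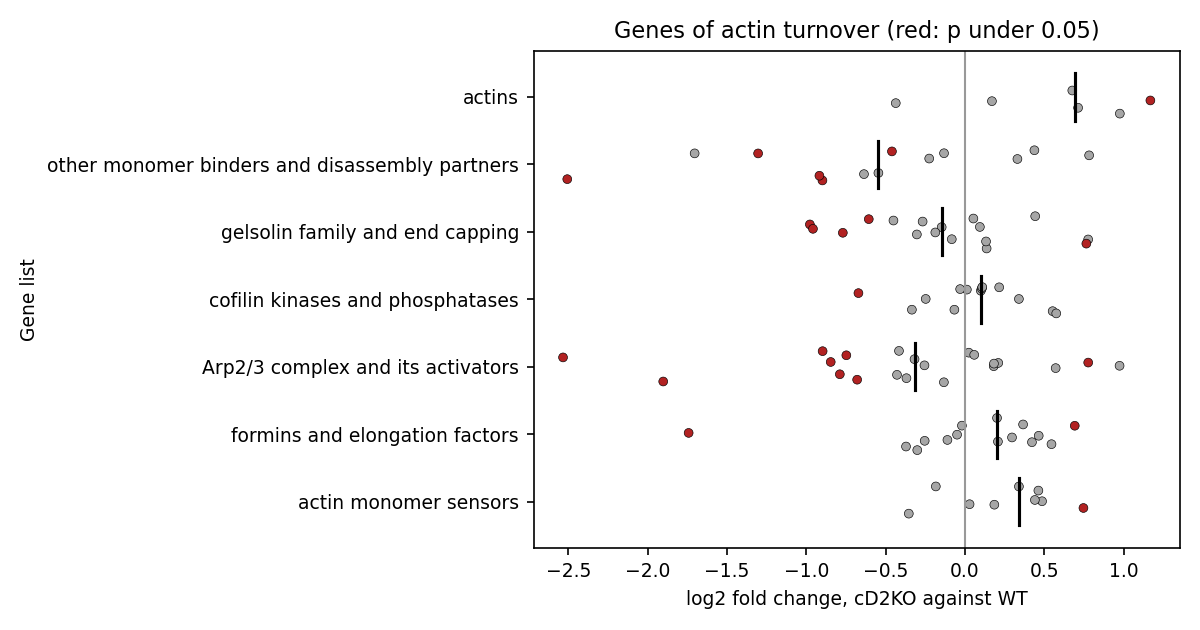
Log2 fold change of each tested gene in 7 lists of actin turnover, with 1 point per gene, red for an unadjusted p under 0.05, and a black bar at the median of the list. The medians run from -0.55 in the other monomer binders to 0.69 in the actins.

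Promoters were read from RefSeq on GRCm38.p6, from 250 bases before to 50 bases after each start, and gave 11 windows for the 9 genes. The CArG box, to which serum response factor binds, was found on either strand in 0 of these windows and in 1.63% of the windows of all genes. The letters AGGTCA, which thyroid hormone receptors bind as a half-site, were found on either strand in 1 of the 11 windows and in 16.3% of all. The match lay 203 bases before the start of Cfl1, shown here with capitals for the motif at chr19:5490240-5490269 on the plus strand.
Cfl1: agaattatattcAGGTCAtttttatcaaac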

How the data were processed

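RNA-seq of qMuSCs from 3 WT and 3 cD2KO mice was used, grouped by the genotype in the labels. The deposited values are raw counts of reads per gene, which the authors made without normalization. Reads were aligned by the authors to mm10 with STAR, and their Methods name a human assembly beside mm10. The submitters' processing notes list bcl2fastq, STAR 2.6.0a and HTSeq 0.9.1. Which annotation was counted, whether strand was used and what was done with duplicates is not given in the sources used here. Each library is 1 mouse, so the mice are the replicates. In edgeR's fit the spread of a gene between mice is moderated toward that of other genes. Its p-values, standard errors and intervals thus do not rest on the gene's own spread alone.

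The analysis kept genes whose counts, normalized by DESeq2, averaged above 10. Libraries were scaled by TMM, and groups were compared by edgeR's quasi-likelihood test (edgeR 4.0.16, R 4.3.3, robust estimation, no covariate), with Benjamini-Hochberg adjustment over all genes tested. A call is an unadjusted p under 0.05. Of the 31053 identifiers, 31011 were found in GENCODE M21, which gave symbols, coordinates and exon lengths. Coding sequences of equal length were compared base by base, and others after a global alignment. Count ratios were tested by exact permutation over mice, two-sided. Alternatives included DESeq2 1.42.0 (Wald test), voom in limma 3.58.1, other scalings, other minimums, non-robust estimation, an adjusted p under 0.1 and leaving out each mouse. Log2 CPM had a prior count of 2.

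The genes named are the 9 members, all tested actins and genes with an unadjusted p under 0.05 in each other actin list. Of the latter, up to 5 per direction were taken by p. Pax7, the defining markers of immune, endothelial and mural cells and the 5 genes most correlated with Tmsb4x are named too. Chosen after their values were seen were Limk1, Limk2, Dio2, Ddx3y, Eif2s3y, Kdm5d, Uty, Xist and Cd79a. The members and lists were chosen with earlier results of these data known. One marker list is not reported here. RT-qPCR and other assays were not analysed here.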

Additional observations from a re-analysis of the deposited data

How the results depend on the processing

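The number of genes called was 1391 and ran from 898 (without WT c129) to 1807 with single mice left out; it was 90 at an adjusted p under 0.1. With scaling to the total count the split was 439 higher and 953 lower in place of 621 and 770. Of the 8 genes not chosen for their change, 2 were called; 1 was called (Dstn) with the Wald test of DESeq2, voom, upper quartile factors, total counts or non-robust estimation or with a minimum mean of 50, and 0 at an adjusted p under 0.1. With single mice left out between 1 and 4 were called, 1 without c130 or fl128 and 4 without fl125. Of the 23 calls in the actin lists 0 had an adjusted p under 0.1. The log2 fold change of Cfl1 ran from -0.42 to 0.0095 with single mice left out, and was above 0 only without fl125; no other log2 fold change of the 9 genes changed sign under the alternatives and mice left out. The log2 difference of the ratio of Pfn2 to Pfn1 ran from -0.028 to 1.29 and turned without c129 or fl128, at -0.0042 for the latter, and that of Cap2 to Cap1 ran from -0.42 to 0.23. The causes were not tested. No paired analysis was possible because the labels give the mice no shared numbers. Pfn1 and Actg1 had few counts, and low RNA and reads left out by the counting cannot be told apart.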
